A study of Zea mays with 6 samples.

Results

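The first 35 Mb of maize chromosome 4 (coordinates on B73 RefGen_v3) held 615 of the 32666 loci in the deposited files. Of these, 399 reached 1 FPKM in at least 3 of the 6 libraries, as did 22314 loci in all, and were kept. FPKM is a fragment count set relative to the length of the locus and to all mapped fragments in that library. The 216 loci left out had means of at most 6.67 FPKM. Within the kept loci, 22 had a mean of at least 300 FPKM over the 6 libraries and are called abundant, and the other 377 are called ordinary. Members were thus chosen by position and by a level averaged over both genotypes. The stretch itself was proposed with earlier results of these data known, among them a lower level of clusters in it, so the changes of those clusters are a description and no independent evidence.

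The study compared kernels of wild-type (WT) maize with kernels of homozygous o11 mutants at 15 days after pollination, with 3 libraries per genotype. The labels name the tissue as kernel, the design text as endosperm, and neither gives the allele, the parental line or whether libraries came from separate ears. P-values therefore cover only how far these libraries scatter, and that scatter may be technical. The protein of the o11 gene is a transcription factor of the bHLH family made in the endosperm. Its own transcript and tissue markers were not analysed here because the loci carry no gene names.

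The endosperm fills in this period with starch and with zeins, the prolamin storage proteins of maize, which are made on the rough endoplasmic reticulum and packed into protein bodies. The alpha zeins are encoded by multigene families whose members lie in tandem arrays, and their transcripts are among the most abundant of the filling kernel. Changes in single zein genes can make the endosperm opaque or floury, as in the floury2 mutant. RefSeq's gene list for another assembly, Zm-B73-REFERENCE-NAM-5.0, names 27 alpha-zein genes on chromosome 4. In order along that chromosome they are a run of 14 z1C1 genes with 2 other genes among them, a run of 9 z1A1 genes with 3 others, a single z1C2 gene (floury2) and 3 z1A2 genes with 3 others. Coordinates were not converted between assemblies, so no locus below was paired with any of these genes, and the abundant loci are numbered 1 to 22 from the start of the chromosome.

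Same-numbered WT and o11 libraries deviated together from their genotype means (Pearson's r over the 399 loci of 0.77, 0.71 and 0.79 for numbers 1, 2 and 3), so each o11 library was read against the WT library of its number. Replicate 3 stood apart from the others, with r of -0.62 between WT library 3 and each of o11 libraries 1 and 2. Between WT library 1 and o11 library 2 it was 0.20, and between WT library 2 and o11 library 1 it was 0.16. Deviations from a mean of 3 libraries sum to 0, so values below 0 across numbers are partly built in. The submitters' processing notes list other tools for the replicate 1 libraries than for replicates 2 and 3, so pair 1 and pairs 2 and 3 are also the values within each kind of processing. Changes were fitted with limma on log2(FPKM + 1) over all 22314 loci, without and with the replicate number as a block, at an adjusted p of 0.05. The fit without the block was planned as the main one and the block as an alternative, because the labels state no pairing. The pairing was read from these same data. Rose and fell are used below for loci that passed with the block, and the value without it is given beside. Summed FPKM over all loci ran from 784761 to 1072271 per library, and fragment numbers are unknown. Steps between low values gave depths of 0.896 to 1.30 relative to WT library 1. In bulk RNA, fewer cells of a type and less RNA per cell cannot be told apart.

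The 22 abundant loci carried most of the summed FPKM of the region, and their sum was lower in o11 in each pair. It was 103053, 111425 and 139717 FPKM in WT libraries 1 to 3, and 69119, 64022 and 95764 in the o11 libraries. All 3 o11 sums lay below all 3 WT sums, and the o11 library was lower by 32.9%, 42.5% and 31.5% in pairs 1, 2 and 3. The means were 118065 ± 19213 FPKM in the WT libraries and 76302 ± 17046 in those of o11 (SD, n = 3), a log2 difference of -0.64 (two-sided exact permutation p = 0.1, the smallest that 3 against 3 libraries allow). That test shuffles the libraries without regard to pairs. Read as pairs, the exact sign-flip p was 0.25, the smallest that 3 pairs allow. The region was proposed with its lower clusters known, so neither p-value is an independent test. These loci held 12.6% ± 0.685 of the FPKM summed over all kept loci of the genome in WT, and 8.89% ± 1.03 of it in o11 (SD, n = 3).

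The 3 clusters did not share in this difference alike. Of the 41763 FPKM between the WT and o11 means, the 5-locus cluster (loci 10 to 14) held 52.2%, the 3-locus cluster (loci 20 to 22) 41.6%, the 6 loci outside clusters 5.38% and the 8-locus cluster (loci 2 to 9) 0.795%. The 8-locus share is a net value, as loci 2 and 5 had higher means in o11 and the others lower. Without locus 2, the other 7 loci had mean sums of 31689 FPKM in WT and 29759.6 in o11. A cluster here is a run of abundant loci with gaps of at most 200 kb. The 8-locus and 5-locus clusters lay only 344123 bp apart, with 15 ordinary loci between them. Near-identical copies can share reads, and how the authors divided such reads is not given in the sources used here, so single loci inside clusters are uncertain and sums are given as well.

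**Figure D1:**
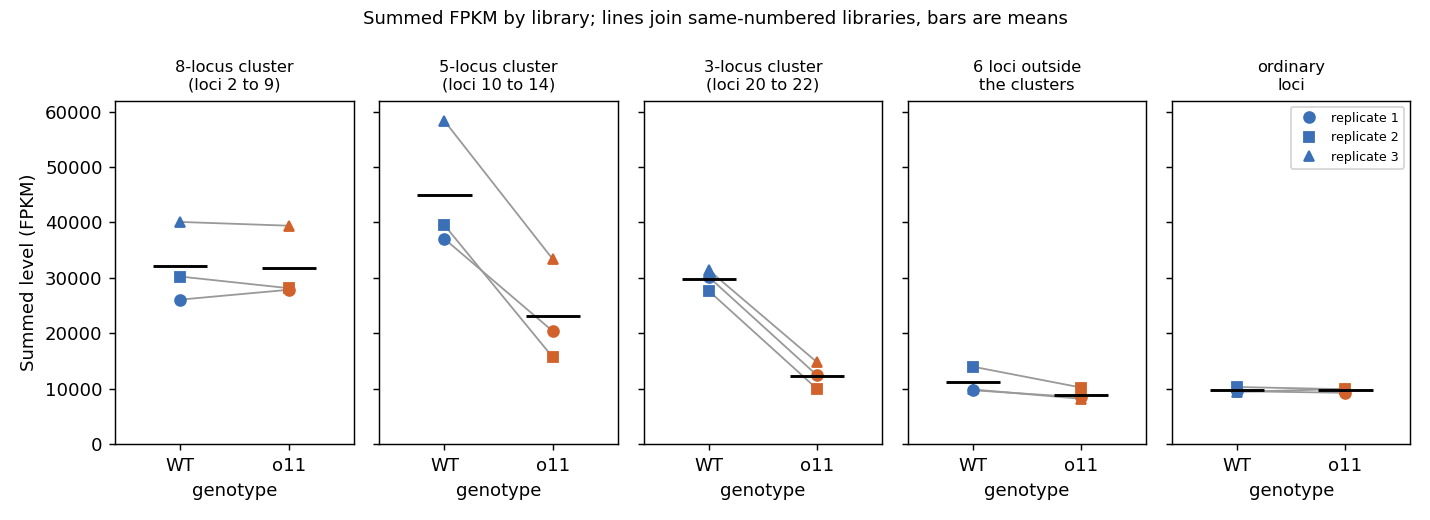
Summed FPKM (axis from 0) of the 3 clusters, the 6 abundant loci outside them and the 377 ordinary loci, with WT on the left and o11 on the right of each panel. Symbols mark replicate numbers, grey lines join same-numbered libraries and black bars are means of 3: the 5-locus and 3-locus sums are lower in every pair, and the 8-locus and ordinary sums overlap.

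Among the 22 abundant loci, 1 rose (locus 2) and 9 fell (loci 1, 8, 10, 11, 14, 16, 20, 21 and 22) with the block, where 9.83% of all kept loci of the genome rose and 9.33% fell. Without the block only locus 2 passed, with 4 at an unadjusted p under 0.05, and over the genome 0.793% of loci passed in either direction. In all 3 pairs the o11 library was lower for 13 of the 22 and higher for 1, against 29.6% and 29.4% of all kept loci. The 3 o11 values lay below the 3 WT values for 5 loci (8, 10, 14, 20 and 22) and above them for locus 2, against 11.7% and 9.86% of all kept loci. The median log2 change was -0.40 over the 22 and 0.0031 over all kept loci. Leaving out a library moved the number of calls with the block: 10 loci passed with all libraries, 2 or 3 without WT or o11 replicate 1 or 2, and 14 without WT or o11 replicate 3. Of the 9 that fell, locus 1 passed in each of 14 alternative analyses, all with the block, and the other 8 in 6 to 10 of them. Several of these repeat the same paired contrast, since a library left without its partner adds nothing to it. Loci 7, 12, 18 and 19 passed only in the 3 without a replicate 3 library.

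**Figure D2:**
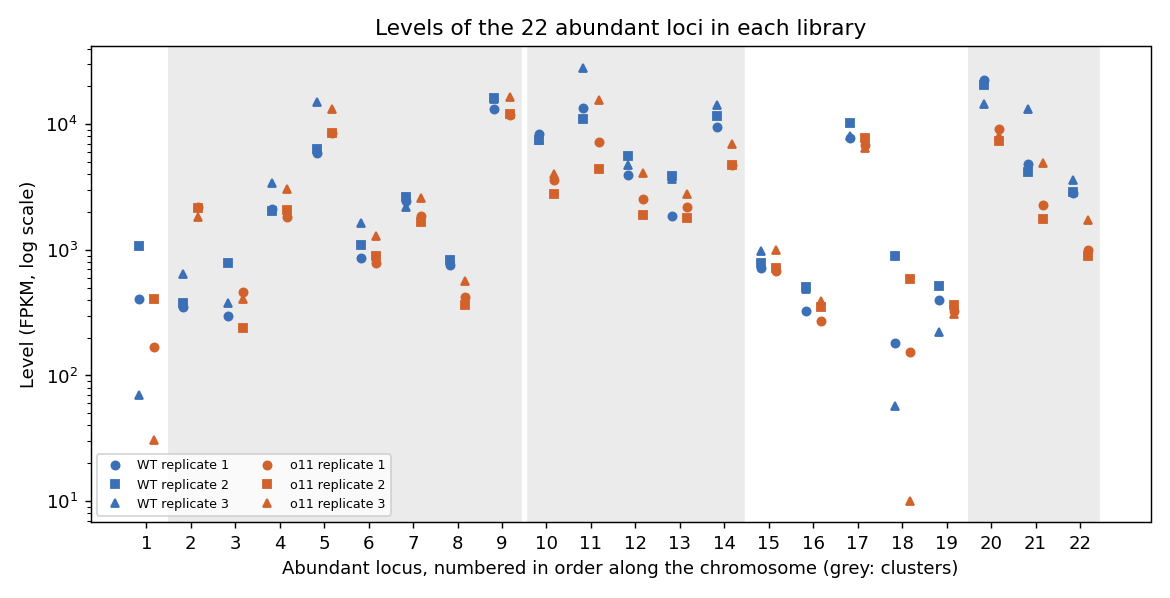
FPKM of each abundant locus (log axis) in the 3 WT (blue) and 3 o11 (orange) libraries, numbered 1 to 22 along the chromosome, with the clusters shaded and symbols for replicate numbers. Locus 2 stands higher in every o11 library, loci 8, 10, 14, 20 and 22 stand lower in every o11 library, and the other loci overlap.

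The 8-locus cluster (5083079 to 5177135) held the most abundant locus of the region and the only abundant locus that rose. Its sum was 26085.5, 30247 and 40099 FPKM in WT libraries 1 to 3, and 27862, 28153 and 39421 in the o11 libraries. The pairs differed by 0.095, -0.10 and -0.025 on the log2 scale, so the sums overlapped and had no common direction (exact permutation p = 0.9). Its loci were unlike each other, and 6 of the 8 had changes below 0.

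Locus 2 (5083079 to 5084155), the first of the cluster, was at 349, 375 and 642 FPKM in WT libraries 1 to 3 against 2177, 2159.6 and 1820.4 in the o11 libraries. Every o11 library exceeded every WT library by far, a 4.51-fold higher mean. The log2 change was 2.22 (SE 0.24, limma adjusted p = 0.00867 with the block and 0.0426 without), and the pairs gave 2.64, 2.52 and 1.501. Its share of the cluster's FPKM went from 1.39% ± 0.188 in WT to 6.70% ± 1.81 in o11 (SD, n = 3). With locus 2 left out, the other 7 loci summed to 31689 ± 7038 FPKM in the WT libraries and 29759.6 ± 6792 in those of o11 (SD, n = 3). Locus 2 passed with the block in each of the 14 alternative analyses.

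Locus 8 (5157899 to 5159215) was the member that fell. It was at 764, 824 and 829.9 FPKM in WT libraries 1 to 3 against 423, 366 and 563 in the o11 libraries, with no overlap between the genotypes. Its log2 change was -0.86 (SE 0.13, limma adjusted p = 0.0177 with the block and 0.158 without), and the pairs gave -0.85, -1.17 and -0.56.

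The largest parts of the sum came from loci 9 and 5. Locus 9 (5171933 to 5177135), a longer locus of 5203 bp, was at 13316, 16133 and 15910.5 FPKM in WT libraries 1 to 3 against 11769, 12165 and 16554 in the o11 libraries. Its genotypes overlapped, and its pairs gave -0.18, -0.41 and 0.057 (adjusted p = 0.56 in limma with the block); under quantile normalization its change turned from -0.18 to 0.65. Locus 5 (5122439 to 5123472) was at 5935, 6377 and 15078 FPKM in WT libraries 1 to 3 against 8566, 8565 and 13145 in the o11 libraries. It was higher in o11 in pairs 1 and 2 and lower in pair 3, and both genotypes had their highest value in replicate 3 (limma adjusted p = 0.43 with the block).

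The other members of the 8-locus cluster did not pass in either fit. Locus 4 (5098147 to 5099103) was at 2099, 2048 and 3415 FPKM in WT libraries 1 to 3 against 1823, 2085 and 3042 in the o11 libraries. Locus 7 (5145291 to 5146364) was at 2465, 2619 and 2206 FPKM in WT libraries 1 to 3 against 1859, 1675 and 2599.9 in the o11 libraries. Both overlapped between the genotypes, and neither had one direction in all pairs. Locus 6 (5127627 to 5128657) was at 857, 1090.5 and 1638 FPKM in WT libraries 1 to 3 against 781, 901 and 1291 in the o11 libraries, lower in o11 in each pair (-0.13, -0.27 and -0.34 on the log2 scale) but with overlapping groups (limma adjusted p = 0.127 with the block). Locus 3 (5094105 to 5094990), the shortest of the cluster at 886 bp, was at 300.1, 783 and 381 FPKM in WT libraries 1 to 3 against 463, 238 and 405 in the o11 libraries. Its pairs disagreed most of all the cluster's loci, at 0.62, -1.72 and 0.086.

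Only 2 ordinary loci lay inside the 8-locus span, and they moved in opposite directions. The locus at 5141270 to 5142076 fell, from 229, 204 and 220.1 FPKM in WT libraries 1 to 3 to 174, 130.4 and 171 in the o11 libraries (log2 change -0.46, SE 0.088, limma adjusted p = 0.0267 with the block and 0.296 without). The locus at 5154347 to 5155431 rose, from 3.12, 5.10 and 2.24 FPKM in WT libraries 1 to 3 to 11.8, 16.1 and 20.8 in the o11 libraries (log2 change 1.96, SE 0.27, limma adjusted p = 0.013 with the block and 0.0525 without). Another riser, at 5010887 to 5011985 and ahead of locus 2, was at 3.26, 6.35 and 5.54 FPKM in WT libraries 1 to 3 against 18.5, 26.1 and 46.8 in the o11 libraries (log2 change 2.32, SE 0.20, limma adjusted p = 0.00575 with the block and 0.0562 without). These 3 were picked after their values had been seen. Over the 14 ordinary loci inside this span or within 200 kb of it, the median change was 0.16. Of these 14, 3 rose and 3 fell (21.4% and 21.4%), beside 9.83% and 9.33% of all kept loci.

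The 5-locus cluster (5521259 to 5561370) was lower in every o11 library than in its WT partner, and in each of its 5 loci the mean was lower. Its sum was 37041, 39505 and 58310.2 FPKM in WT libraries 1 to 3, and 20383, 15671 and 33359.6 in the o11 libraries. No o11 sum reached the lowest WT sum, and the pairs gave -0.86, -1.33 and -0.81 on the log2 scale. Loci 10, 11 and 14 fell, and loci 12 and 13 did not pass.

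Locus 10 (5521259 to 5523302) was at 8361, 7452 and 7459 FPKM in WT libraries 1 to 3 against 3631, 2784 and 4019 in the o11 libraries. The WT values were close together and all above the o11 values, with a log2 change of -1.17 (SE 0.16, limma adjusted p = 0.0138 with the block and 0.24 without). Locus 11 (5535743 to 5536690), the most abundant of the cluster, was at 13383, 10991 and 28277 FPKM in WT libraries 1 to 3 against 7289.7, 4433 and 15517 in the o11 libraries. Replicate 3 stood out in both genotypes, at 2.32 times the mean of replicates 1 and 2 in WT and 2.65 times in o11, so the groups overlapped while each pair was lower (-0.88, -1.31 and -0.87). Its log2 change was -1.02 (SE 0.19, limma adjusted p = 0.0268 with the block and 0.605 without). Locus 14 (5548772 to 5561370), the longest abundant locus at 12599 bp, was at 9480.2, 11548 and 14222 FPKM in WT libraries 1 to 3 against 4739, 4777 and 6916 in the o11 libraries. Here too no o11 value reached the WT values, and the log2 change was -1.10 (SE 0.16, limma adjusted p = 0.015 with the block and 0.358 without).

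Locus 12 (5539880 to 5541152) was at 3941, 5605 and 4697 FPKM in WT libraries 1 to 3 against 2534, 1883 and 4104 in the o11 libraries. It was lower in each pair but unevenly, at -0.64, -1.57 and -0.19 (limma adjusted p = 0.105 with the block). Locus 13 (5544525 to 5545663) was at 1876, 3909 and 3655 FPKM in WT libraries 1 to 3 against 2189, 1794 and 2804 in the o11 libraries, higher in o11 in pair 1 and lower in the other two (limma adjusted p = 0.299 with the block). The shares of the 5 loci within the cluster differed less than the sum: locus 11 made up 37.5% ± 10.4 of it in WT and 36.9% ± 9.16 in o11, locus 14 made up 26.4% ± 2.52 and 24.8% ± 5.06, and locus 13 made up 7.08% ± 2.51 and 10.2% ± 1.59 (SD, n = 3). No ordinary locus lay inside the cluster. Of the 11 within 200 kb of it, 0 rose and 1 fell with the block in limma (0 and 9.09%), beside 9.83% and 9.33% of all kept loci. Their median change was -0.052. The interval that fell, 5380348 to 5387754, is listed more than once among the 11. An entry of it fell (limma adjusted p = 0.0292 with the block) and another did not pass (limma adjusted p = 0.222 with the block).

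The 3-locus cluster (29951761 to 30091004) had the largest relative difference of the 3 clusters, and each of its loci fell. Its sum was 30189, 27680.4 and 31423 FPKM in WT libraries 1 to 3, and 12423, 9974 and 14787 in the o11 libraries. The WT sums lay close together and far above the o11 sums, and the pairs gave -1.28, -1.47 and -1.09 on the log2 scale.

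Locus 20 (29951761 to 29952727) was at 22509.8, 20597 and 14599 FPKM in WT libraries 1 to 3 against 9147, 7324 and 8107 in the o11 libraries. The lowest WT value exceeded the highest o11 value, and the log2 change was -1.21 (SE 0.21, limma adjusted p = 0.0222 with the block and 0.379 without). Locus 21 (29963321 to 29964591) was at 4849, 4187 and 13191 FPKM in WT libraries 1 to 3 against 2285.5, 1749.5 and 4937 in the o11 libraries. In both genotypes its replicate 3 value was the highest, at 2.92 times the mean of the other two in WT and 2.45 times in o11, and o11 library 3 overlapped WT libraries 1 and 2. Its pairs were alike, at -1.08, -1.26 and -1.42, with a log2 change of -1.25 (SE 0.14, limma adjusted p = 0.00898 with the block and 0.435 without). Locus 22 (30089546 to 30091004), which lies 124954 bp beyond locus 21, was at 2829.8, 2897 and 3633 FPKM in WT libraries 1 to 3 against 990.0, 901 and 1743 in the o11 libraries. Its groups did not overlap, and its log2 change of -1.42 (SE 0.15, limma adjusted p = 0.00859 with the block and 0.138 without) was the lowest of the 22 loci.

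Quantile normalization ended the call of locus 20 (log2 change -0.64, limma adjusted p = 0.124 with the block). It also ended those of locus 11 (-0.42, limma adjusted p = 0.311) and locus 14 (-0.60, limma adjusted p = 0.111) in the 5-locus cluster.

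The balance between loci 20 and 21 differed by replicate more than by genotype. Locus 20 made up 74.6, 74.4 and 46.5% of the cluster in WT libraries 1 to 3, and 73.6, 73.4 and 54.8% in the o11 libraries, so replicate 3 was the low one in both. No ordinary locus lay inside this span, and the 2 within 200 kb of it had changes of 0.12 and 0.32 and did not pass in either fit.

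**Figure D3:**
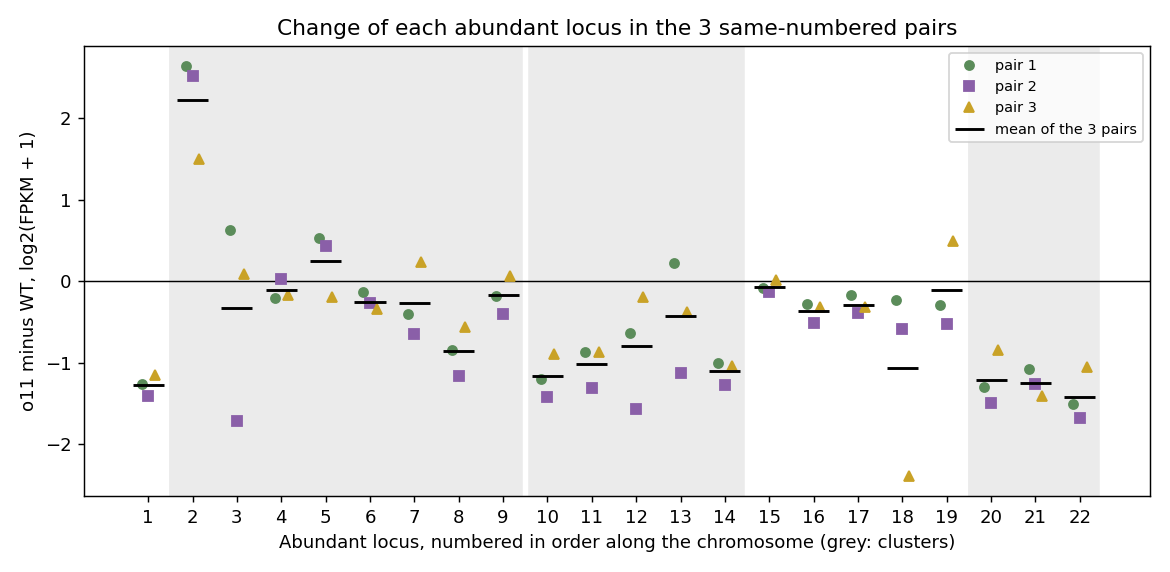
Change of each abundant locus (o11 minus WT on the log2(FPKM + 1) scale) in pairs 1, 2 and 3, with a black bar for the mean of the pairs and the clusters shaded. In the 5-locus and 3-locus clusters all pair values but the pair 1 value of locus 13 (0.22) lie below 0, locus 2 lies at 1.501 to 2.64, and loci 3 and 18 have the widest spreads.

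The 6 abundant loci outside the clusters were all lower on average in o11, and 2 of them fell. Their sum was 9738, 13992 and 9884 FPKM in WT libraries 1 to 3, and 8452, 10224 and 8196 in the o11 libraries, lower in o11 in each pair (-0.20, -0.45 and -0.27) with overlapping groups (exact permutation p = 0.3). Most of it was locus 17 (21334901 to 21335970), at 7709, 10220.1 and 8069 FPKM in WT libraries 1 to 3 against 6858, 7801 and 6463 in the o11 libraries. Its groups overlapped by a narrow margin and it did not pass (log2 change -0.29, SE 0.16, limma adjusted p = 0.236 with the block and 0.844 without); under quantile normalization its change was 0.052.

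Locus 1 (1513618 to 1514185), a short locus of 568 bp far from the others, fell although its level varied widely between replicates. It was at 404, 1079 and 69.3 FPKM in WT libraries 1 to 3 against 167, 407 and 30.7 in the o11 libraries. Replicate 2 was the highest and replicate 3 the lowest in both genotypes, so the groups overlapped widely, yet the pairs gave -1.27, -1.41 and -1.15. The log2 change was -1.27 (SE 0.082, limma adjusted p = 0.00348 with the block and 0.728 without), and the call with the block held in each of the 14 alternatives. Locus 18 (23376819 to 23377046), of 228 bp, had the same order of replicates, at 181, 888 and 57.2 FPKM in WT libraries 1 to 3 against 154, 590.4 and 10.1 in the o11 libraries. Its pairs spread from -2.39 to -0.23, and it did not pass (limma adjusted p = 0.137 with the block).

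Locus 16 (20566051 to 20572790) fell by a small step, from 328, 502 and 484 FPKM in WT libraries 1 to 3 to 270.2, 352 and 389 in the o11 libraries, with a log2 change of -0.37 (SE 0.086, limma adjusted p = 0.0425 with the block and 0.584 without), a call that held in 6 of the 14 alternatives. Locus 15 (14877067 to 14881858) was at 714, 785 and 984 FPKM in WT libraries 1 to 3 against 676, 713 and 992 in the o11 libraries. Locus 19 (28055574 to 28056779) was at 401, 518 and 220.2 FPKM in WT libraries 1 to 3 against 326, 361 and 311 in the o11 libraries. Neither passed, and their pairs did not share a direction. At the limit of 300 FPKM, locus 18 had the lowest mean of the abundant loci, 314 FPKM, and the highest ordinary locus (21158461 to 21161610) had 297 FPKM, with 225, 279 and 283 FPKM in WT libraries 1 to 3 against 320.2, 362 and 312 in the o11 libraries. The last kept locus before the 35 Mb limit (34954639 to 34964831) had a mean of 38.7 FPKM and the first one after it (35243107 to 35249091) 5.50 FPKM.

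Abundant loci were short. Their median length was 1108 bp against 3685 bp for the ordinary loci of the region, and 17 of 22 spanned less than 1500 bp, against 73 of 377 ordinary loci and 73 of the 238 abundant loci elsewhere. The limit of 1500 bp was set after the lengths had been seen. FPKM divides by length, so the level of a short locus rests on fewer fragments than the same FPKM in a long one. Replicate 3 was the highest library in both genotypes for 9 of the 22 and replicate 2 for 4, and all 4 of the latter lay outside the clusters (loci 1, 17, 18 and 19). These shares of 40.9% and 18.2% compare with 29.97% and 15.9% over all kept loci. Over the 238 abundant loci elsewhere they were 59.2% and 9.66%. The part of these replicate differences in the o11 difference was not tested. In the replicate 1 and 2 libraries alone the log2 difference of the abundant sum was -0.69.

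The sum of the ordinary loci had no common direction in the pairs. It was 9570.0, 10319.5 and 9464 FPKM in WT libraries 1 to 3, and 9276, 9923 and 9972 in the o11 libraries, with pairs of -0.045, -0.057 and 0.076 on the log2 scale and overlapping groups (log2 difference -0.0087, exact permutation p = 1, SE of the pairs 0.042). Its sign depended on scaling, at 0.039 after upper-quartile scaling. With the limit for abundant loci at 100 or 1000 FPKM in place of 300, the ordinary sum differed by -0.094 (exact permutation p = 0.1, groups not overlapping) or -0.12 (exact permutation p = 0.6). The median change of the 377 was -0.026 against 0.0031 over all kept loci of the genome, and it was -0.017, -0.043 and -0.017 in pairs 1, 2 and 3.

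Single ordinary loci did change in both directions, and their shares are given beside those of the genome. With the block 39 rose and 50 fell of 377 (10.3% and 13.3%, beside the genome's 9.83% and 9.33%), and 18 of the rises and 8 of the falls reached 2-fold. Over all 22314 kept loci, 657 of 2193 rises and 273 of 2083 falls reached 2-fold, so more 2-fold rises than falls is not particular to the region. Of the 157 loci with means of 10 to 100 FPKM, 13 rose and 33 fell (8.28% and 21.0%), where 9.90% and 14.4% of all kept loci of that level did. Of the 196 below 10 FPKM, 20 rose and 9 fell (10.2% and 4.59%), beside 8.79% and 4.04% at that level. Of the 24 from 100 to 300 FPKM, 6 rose and 8 fell, where 19.6% and 18.4% of all kept loci of that level did. Groups did not overlap for 61 loci lower and 45 higher in o11 (16.2% and 11.9%), beside 11.7% and 9.86% of all kept loci.

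Without the block 3 ordinary loci passed, all rises and all ahead of the clusters. Together with locus 2 these were the 4 of 399 loci called in that fit, where 0.793% of all kept loci passed. The largest rise was at 1299466 to 1300872, from 16.9, 23.5 and 4.93 FPKM in WT libraries 1 to 3 to 239.6, 296 and 149 in the o11 libraries. Its lowest o11 value was well above its highest WT value, with a log2 change of 4.003 (SE 0.22, limma adjusted p = 0.00304 with the block and 0.0425 without). The next, at 1463948 to 1466230, was at 4.55, 6.15 and 1.89 FPKM in WT libraries 1 to 3 against 24.1, 31.6 and 27.8 in the o11 libraries, again without overlap (log2 change 2.56, SE 0.25, limma adjusted p = 0.0071 with the block and 0.0423 without). The third, at 3214647 to 3216558, was named because it completes this count, after its values had been seen. It was at 35.9, 62.2 and 62.1 FPKM in WT libraries 1 to 3 against 172, 244 and 273 in the o11 libraries (log2 change 2.10, SE 0.083, limma adjusted p = 0.00257 with the block and 0.0424 without). The 2 larger rises also passed with the block in each of the 14 alternatives.

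The largest falls without overlap were at low-level loci far along the region. The locus at 31156081 to 31157667 went from 4.26, 4.95 and 8.81 FPKM in WT libraries 1 to 3 to 0.347, 1.23 and 3.25 in the o11 libraries, lower in each pair (log2 change -1.53, SE 0.18, limma adjusted p = 0.0106 with the block and 0.193 without). The locus at 21691924 to 21695433 went from 9.75, 11.4 and 15.8 FPKM in WT libraries 1 to 3 to 2.97, 2.24 and 7.52 in the o11 libraries (log2 change -1.45, SE 0.20, limma adjusted p = 0.0132 with the block and 0.155 without). Their calls held in 11 and 10 of the 14 alternatives and ended, among others, without WT replicate 1 or 2. A larger change with overlapping groups, singled out after its values had been seen, was at 34294927 to 34295919, near the end of the region. It was at 298, 283 and 30.3 FPKM in WT libraries 1 to 3 against 61.2, 55.6 and 5.79 in the o11 libraries, so replicate 3 was lowest in both genotypes, and its pairs gave -2.27, -2.32 and -2.20 (log2 change -2.26, SE 0.071, limma adjusted p = 0.00257 with the block and 0.447 without).

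Read interval by interval, the ordinary loci between the abundant ones had median changes from -0.11 to 0.34, leaving out the 2 loci inside the 8-locus cluster described above (median 0.75). Counts are those called with the block, where 9.83% of all kept loci rose and 9.33% fell. Before locus 1 lay 25 ordinary loci with a median change of -0.075 (3 rose, 5 fell), and between locus 1 and the 8-locus cluster lay 59 with -0.035 (4 rose, 3 fell). The 15 between the 8-locus and 5-locus clusters had 0.028 (1 rose, 3 fell), between a cluster whose sums overlapped and one whose sums were lower in each pair. These 15 include the repeated interval 5380348 to 5387754, of which an entry fell and another did not pass. The longest gap, from the 5-locus cluster to locus 15, held 92 with 0.01 (10 rose, 13 fell). Between loci 15 and 16 the 48 ordinary loci had 0.0019 (4 rose, 4 fell).

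In the second part of the region, the 5 loci between loci 16 and 17 had a median of 0.34 (2 rose and 0 fell with the block in limma) and the 15 between loci 17 and 18 had 0.17 (3 rose, 2 fell). The 48 between loci 18 and 19 had -0.074 (4 rose, 6 fell), and the 17 between locus 19 and the 3-locus cluster had -0.11 (0 rose and 5 fell, or 29.4%, with the block in limma). Beyond the last cluster 51 loci had -0.0084 (7 rose, 8 fell). The median change of the 3 loci of that cluster was -1.25.

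**Figure D4:**
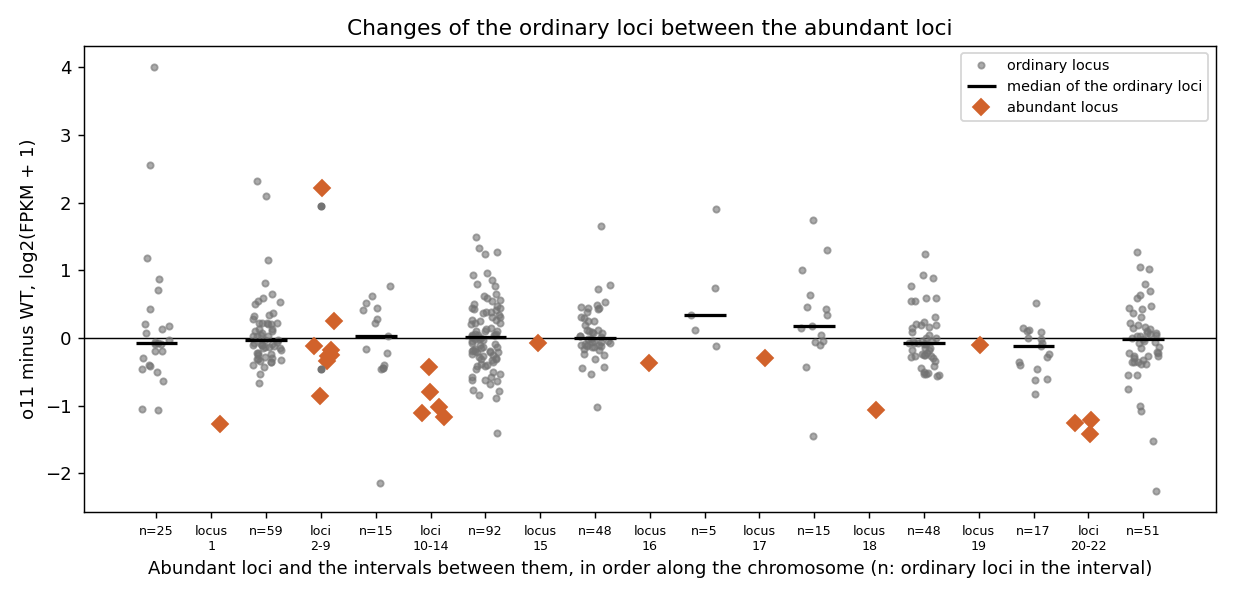
Change (o11 minus WT, log2(FPKM + 1)) of every kept locus of the region, in order along the chromosome: ordinary loci as grey circles by interval with a black bar for the median, and abundant loci as orange diamonds, with the 2 ordinary loci inside the 8-locus cluster drawn among its diamonds. Medians of the intervals outside the clusters run from -0.11 to 0.34, the 2 loci inside the 8-locus cluster have 0.75, and the diamonds of loci 10 to 14 and 20 to 22 all lie below 0.

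Within a library, the abundant sum was 10.8, 10.8 and 14.8 times the ordinary sum of the same region in WT libraries 1 to 3 and 7.45, 6.45 and 9.60 times in the o11 libraries. This ratio, which does not depend on the scaling factor of a library, had log2 pair differences of -0.53, -0.74 and -0.62, and the genotypes did not overlap (log2 difference -0.63, exact permutation p = 0.1). As for the abundant sum, this p-value is no independent test, since the lower clusters were known when the region was proposed. Quantile normalization, which gives the top ranks of each library the same values, gave -0.13 in place of -0.63 (exact permutation p = 0.4), and -0.15 in place of -0.64 for the abundant sum (exact permutation p = 0.2).

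Set against the abundant loci of the rest of the genome, those of the region were lower in o11 in each pair. The 238 abundant loci elsewhere summed to 359544 ± 76281 FPKM in the WT libraries and 317316 ± 68025 in those of o11 (SD, n = 3), with overlapping groups (log2 difference -0.18). The region's abundant sum was 0.368, 0.304 and 0.324 times that sum in WT libraries 1 to 3 and 0.273, 0.206 and 0.246 times in the o11 libraries, with no overlap. The log2 difference of this ratio was -0.46, with pairs of -0.43, -0.56 and -0.39 (exact permutation p = 0.1). Because the region was proposed with its lower clusters known, this value describes these libraries and is no independent test of region against rest. With chromosome 7 loci starting under 30 Mb left out of the rest, a choice made after the data had been seen, it was -0.65. The remaining 228 loci elsewhere had a log2 difference of 0.014 in their sum, in place of -0.18 for the 238. The lower o11 mean of the rest thus lay in the chromosome 7 loci left out. The value of -0.65 therefore sets aside another lower group and does not show a difference particular to the region. Of the 238, 57 rose and 43 fell with the block (23.9% and 18.1%), where 9.83% and 9.33% of all kept loci did, and 1 and 9 of the 22 did (4.55% and 40.9%). In all 3 pairs 76 of the 238 were lower and 102 higher in o11, where 29.6% and 29.4% of all kept loci were. The median change was 0.10 for the 238 and -0.40 for the 22.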

How the data were processed

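Kernel RNA of 3 WT and 3 o11 libraries was compared. The authors deposited 1 FPKM value per locus and library, per the file headers. According to the submitters' processing notes, the replicate 1 libraries went with Bowtie 0.12.2, the other 4 with TopHat and Cufflinks (no versions), and all with B73 RefGen_v3. Annotation, strand and any further scaling are not given in the sources used here.

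Loci were joined across files by row, with the same locus column in each. Starts as deposited were taken to count from 0 (end minus start is a multiple of 3 for 67 of 98 organelle loci) and are printed counted from 1. That reading is an inference from these lengths and remains unsure. Kept loci had at least 1 FPKM in at least 3 libraries. limma 3.58.1 in R 4.3.3 was fitted to log2(FPKM + 1) over the 22314 kept loci, with a mean-variance trend. Benjamini-Hochberg adjustment covered all of them (threshold 0.05). A change on the log2(FPKM + 1) scale understates that of low loci. limma was also run on simulated data, whose replicate shifts and residual spread came from the fit with the block. That run cannot show whether the pairing holds. Sums were compared by two-sided exact permutation tests over libraries in Python 3.11.15.

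Deviations from genotype means over all kept loci correlated at 0.75, 0.67 and 0.76 between same-numbered libraries, so the numbers were taken to pair them, from the data and not the labels. Ordinary loci were named as the 2 largest rises and 2 largest falls among the 29 and 33 that passed with the block without overlap. Members, clusters and lists were chosen with earlier results of these data known. Marker and storage-protein lists could not be matched without gene names. No sequence is shown, since no genome of the files' build was used here.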

Additional observations from a re-analysis of the deposited data

How the results depend on the processing

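Of the 399 loci, 4 passed in limma without the replicate block and 99 with it (40 rises, 59 falls). Without the block a pseudocount of 0.1 left 2, and 0 passed with no filter on low values (95 at an unadjusted p under 0.05), in the replicate 2 and 3 libraries only (45), in the replicate 1 and 2 libraries only (80) or without any 1 library (46 to 73). With the block 12 passed in the replicate 2 and 3 libraries only, and 12 to 127 without 1 library: 12 and 18 without WT replicate 1 or 2, 13 and 20 without o11 replicate 1 or 2, and 124 and 127 without a replicate 3 library. A library left without its partner adds nothing to the paired contrast. The other 7 alternatives with the block gave 70 to 126 loci. Of the 10 abundant loci called with the block, 5 passed with no filter on low values and 7 with quantile normalization.

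The abundant sum stayed lower in o11 in each alternative run (-0.82 to -0.15), as did its ratio to the ordinary sum (-0.79 to -0.13) and to the abundant sum elsewhere (-0.65 to -0.20). In each case quantile normalization gave the value nearest 0. Read as pairs, with the replicate block, the 3 differences keep their values, with an exact sign-flip p of 0.25, the smallest that 3 pairs allow. The ordinary sum (-0.0087) was 0.039 after upper-quartile scaling, 0.0084 with a limit of 30 Mb, 0.0095 in the replicate 2 and 3 libraries only, -0.094 and -0.12 with an abundance limit of 100 and 1000 FPKM, and -0.032 to 0.030 without 1 library. The median change of ordinary loci (-0.026) was 0.0083 with no filter, -0.049 with quantile normalization, 0.0058 with upper-quartile scaling and -0.064 to 0.011 without 1 library. The cause of these shifts was not tested. The replicate 1 and 2 libraries only, the alternatives within the blocked fit other than leaving out 1 library, the sums without locus 2 and the rest without chromosome 7 were added after the data had been seen. Unknown fragment numbers limit what can be said of loci under 10 FPKM.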
